A study of Mus musculus with 12 samples.

Results

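Glul, Slc1a2, Rhbg and Oat, 4 genes through which hepatocytes around the central vein handle glutamine and ammonium, were followed across the 4 groups of a mouse liver series. Every probe set whose annotated symbol is exactly one of these names was taken, which gave 4 of 18193 annotated genes and 9 of the 45101 probe sets on the array: 2 for Glul, 5 for Slc1a2, 1 for Rhbg and 1 for Oat. Liver RNA came from 12 male mice of the 129J background, 3 per group, with 1 Affymetrix whole-genome mouse array each. The groups carry the labels KO 24 months tumor, KO 6 months, WT 24 months and WT 6 months, where KO stands for IQGAP2 knockout (Iqgap2-/-) and WT for wild type. Per the labels the first was taken from hepatocellular carcinoma and the 3 others from normal liver, and all mice ate a regular diet. The study describes the knockout as whole-body, and no source used here names a tissue-specific promoter for the deletion. The labels call the arrays of a group biological replicates. Values are log2 intensities after robust multi-array averaging (RMA), on which a step of 1 is a doubling of signal.

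The labels of a pair of groups did not match the deleted gene. The brightest Iqgap2 probe set averaged 12.12 ± 0.06 in the arrays labelled KO 24 months tumor, 8.29 ± 0.34 in KO 6 months, 12.17 ± 0.21 in WT 24 months and 8.32 ± 0.07 in WT 6 months (SD, n = 3 each). Iqgap2 was therefore high in a group labelled KO and low in a group labelled WT, as if the labels KO 24 months tumor and WT 6 months had changed places. Which part of the gene was deleted is not given in the sources used here, so whether either probe set lies inside it is not known. The deposited labels were kept, and each group is called by its label below. If those labels were exchanged, the same 4 pairs of groups would be compared under other names and the 12 values of each probe set would be unchanged. Over all probe sets the arrays of a group correlated with each other at a mean r between 0.976 and 0.994, lowest for WT 24 months replicate 3. With the arrays of other groups the mean r was 0.965 to 0.984. For WT 24 months replicate 1 it was higher with other groups (0.984) than with its own (0.981).

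Ammonium that reaches the liver is first used by periportal hepatocytes, which make urea from it. What escapes is captured by a thin layer of pericentral hepatocytes, where glutamine synthetase (Glul) joins ammonium to glutamate. Rhbg, a membrane protein of the Rh family, carries ammonium, Slc1a2 (also called GLT-1) imports glutamate, and Oat, ornithine aminotransferase, forms glutamate from the amino group of ornithine. In mouse liver the pericentral layer is kept by Wnt/β-catenin signaling, a pathway that the study examined.

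In each of the 9 probe sets, every WT 6 months array (by label) read above all 9 arrays of the other groups. Against the mean of the 3 other groups they were 1.85-fold (Oat) to 20.5-fold (Rhbg) higher, and all 9 passed limma's test at an adjusted p of 0.05 or less. Of all 45037 probe sets tested, 15.8% passed this contrast in either direction and 8.2% as higher. A fold of 3 or more was reached as well by 5 of the 9, and by 1.69% of all probe sets. How many of all probe sets put every WT 6 months array above the 9 others was not counted. In bulk RNA, fewer cells of a type and less RNA per cell cannot be told apart. The contrast was chosen with earlier results of these data known. The order of the 3 other groups differed from gene to gene, and no member probe set passed in either of the pairs tested among them.

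**Figure D1:**
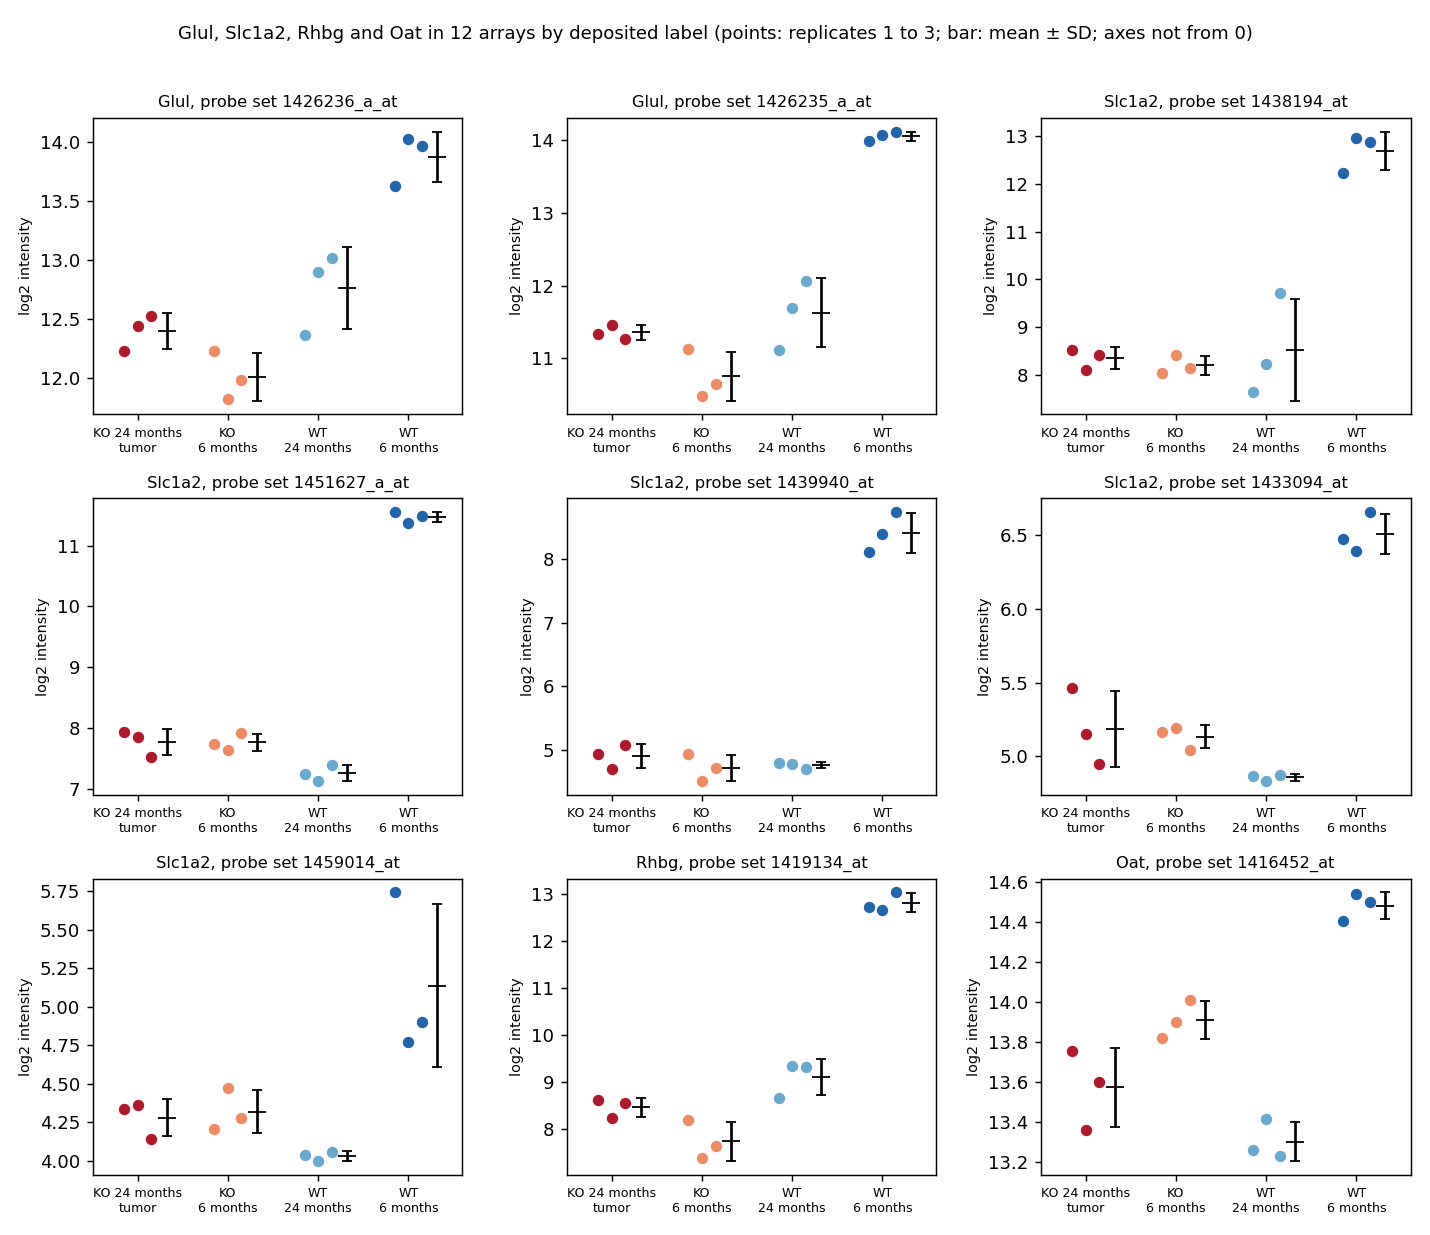
Log2 intensity (vertical axis, not starting at 0) of each of the 9 probe sets in the 12 arrays, which are grouped along the horizontal axis by label, with points for replicates 1 to 3 and a bar for the mean ± SD. The 3 arrays labelled WT 6 months lie above the other 9 in every panel, and WT 24 months replicate 3, at 9.72, stands above its group on Slc1a2 probe set 1438194_at alone of the Slc1a2 panels.

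As the genes had their highest values in the same arrays, the 250 bases before the start of each were read from RefSeq (build GRCm38.p6), which held 3 of the 4 genes in the table used. They are shown with the letters CTTTGA or CTTTGT, which TCF/LEF factors, the DNA-binding partners of β-catenin, are known to prefer, in capitals wherever they stand on either strand (TCAAAG or ACAAAG when read on the other strand). The windows are chr1:153899679-153899928 (+ strand) for Glul, chr2:102706188-102706437 (+ strand) for Slc1a2, whose listed start lies inside the span of the gene, and chr7:132576399-132576648 (- strand) for Oat.
Glul: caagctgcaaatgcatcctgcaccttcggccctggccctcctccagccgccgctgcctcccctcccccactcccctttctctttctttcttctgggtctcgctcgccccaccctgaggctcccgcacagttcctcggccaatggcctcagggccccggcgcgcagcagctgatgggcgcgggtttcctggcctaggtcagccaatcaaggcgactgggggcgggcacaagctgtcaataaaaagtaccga
Slc1a2: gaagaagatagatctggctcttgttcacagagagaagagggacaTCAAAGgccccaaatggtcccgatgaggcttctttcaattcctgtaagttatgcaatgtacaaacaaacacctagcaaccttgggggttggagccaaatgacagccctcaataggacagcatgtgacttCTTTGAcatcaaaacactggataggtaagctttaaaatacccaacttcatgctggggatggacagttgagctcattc
Oat: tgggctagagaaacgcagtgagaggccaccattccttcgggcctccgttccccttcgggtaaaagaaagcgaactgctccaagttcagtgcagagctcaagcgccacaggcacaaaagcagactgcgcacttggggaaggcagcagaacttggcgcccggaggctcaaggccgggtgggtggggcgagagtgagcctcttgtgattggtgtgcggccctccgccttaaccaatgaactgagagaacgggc
Slc1a2 held 2 matches, beginning 206 and 77 bases before its start, and Glul and Oat held none in these windows. Of 32851 such windows of all genes, 27.6% held at least 1 match, so a match is common, and it is a description of the letters and not of a bound site.

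Glul, the enzyme that makes glutamine, was measured by 2 probe sets. On the brighter one, 1426236_a_at, the arrays labelled KO 24 months tumor read 12.23, 12.44 and 12.52, KO 6 months read 12.23, 11.82 and 11.99, WT 24 months read 12.37, 12.90 and 13.02, and WT 6 months read 13.63, 14.03 and 13.96. Only the WT 6 months arrays stood clear of the rest, while the 3 other groups overlapped in part. Probe set 1426235_a_at gave means of 11.36 ± 0.10 in KO 24 months tumor, 10.75 ± 0.34 in KO 6 months, 11.63 ± 0.48 in WT 24 months and 14.06 ± 0.06 in WT 6 months (SD, n = 3 each). Both probe sets ranked the groups alike (r = 0.98 between them over the 12 arrays), with WT 6 months highest, then WT 24 months, KO 24 months tumor and KO 6 months. They differed in size: Glul was 3.64-fold lower in KO 6 months than in WT 6 months on the first and 9.88-fold lower on the second.

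Slc1a2, the glutamate importer, was measured by 5 probe sets that differ in brightness. On 1438194_at it read 8.53, 8.09 and 8.42 in KO 24 months tumor, 8.04, 8.42 and 8.15 in KO 6 months, 7.64, 8.22 and 9.72 in WT 24 months, and 12.24, 12.97 and 12.88 in WT 6 months. The value of 9.72, in WT 24 months replicate 3, was the highest outside WT 6 months, and it set the wide spread of its group (SD 1.07). In the same array the 6 Kupffer cell and macrophage markers summed to 14.64 on the log2 scale, against 11.18 and 11.86 in the other WT 24 months arrays, and their part in this value was not tested. Without it, the WT 24 months minus WT 6 months difference of this probe set was -4.77 (limma, adjusted p = 8.37e-07). The same array was not raised on 1451627_a_at, where WT 24 months read 7.25, 7.14 and 7.40, against 11.54, 11.37 and 11.48 in WT 6 months. On that probe set the other means were 7.78 ± 0.21 in KO 24 months tumor and 7.77 ± 0.14 in KO 6 months (SD, n = 3 each).

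The third Slc1a2 probe set, 1439940_at, averaged 4.90 in KO 24 months tumor, 4.72 in KO 6 months and 4.76 in WT 24 months, against 8.42 ± 0.31 (SD, n = 3) in WT 6 months. The 2 dimmest had means over all arrays below 5.44, the median of such means over all probe sets. On 1433094_at the WT 6 months arrays read 6.39 to 6.66 and the 9 others 4.83 to 5.46. On 1459014_at they read 4.77 to 5.74 and the 9 others at most 4.47, a narrow gap that came with a spread of SD 0.53 among the WT 6 months arrays. Over the 12 arrays the 5 probe sets correlated pairwise at r between 0.77 and 0.98, the lowest for 1459014_at with 1438194_at. Below WT 6 months they did not share 1 order of the groups, since WT 24 months had the next highest mean on 1438194_at and the lowest on 1451627_a_at, and no step among the pairs tested there passed.

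Rhbg, the ammonium carrier, had the widest range of the 4 genes. It read 8.62, 8.24 and 8.56 in KO 24 months tumor, 8.21, 7.39 and 7.64 in KO 6 months, 8.67, 9.34 and 9.33 in WT 24 months, and 12.72, 12.66 and 13.03 in WT 6 months. Its 4 groups did not overlap, and the share of all probe sets separated in this way was not counted. From the highest, the order was WT 6 months, WT 24 months, KO 24 months tumor and KO 6 months. The group means of Glul had the same order, but its groups below WT 6 months overlapped in part. Of the neighbors in this order, WT 24 months and WT 6 months differed by limma's test, and KO 24 months tumor did not pass against WT 24 months or KO 6 months.

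Oat, which links ornithine to glutamate and is known from pericentral hepatocytes as well, changed least and in another order. It read 13.76, 13.36 and 13.60 in KO 24 months tumor, 13.82, 13.90 and 14.01 in KO 6 months, 13.26, 13.42 and 13.23 in WT 24 months, and 14.41, 14.54 and 14.50 in WT 6 months. WT 6 months was again highest, but KO 6 months came next and WT 24 months was lowest. Of these neighbors only KO 6 months and WT 6 months differed by limma's test. These values lie near the top of the scale, since the brightest probe set of each array read 15.12 to 15.32. Whether the scale is compressed there was not tested.

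At 6 months the genotypes were compared by label. All 9 probe sets were lower in KO 6 months than in WT 6 months by limma's test, 6 of them by 3-fold or more, the fold set in the study's methods. Of all probe sets 12.1% passed in either direction, and 1.79% passed with a fold of 3 or more. Rhbg was 33.3-fold lower, a log2 difference of -5.06 (SE 0.23, adjusted p = 2.17e-07). Slc1a2 was 22.5-fold lower on 1438194_at (-4.49, SE 0.41, adjusted p = 3.84e-05) and 13.0-fold lower on both 1451627_a_at and 1439940_at. The difference of Glul was -1.86 (SE 0.18, adjusted p = 5.99e-05) on the brighter probe set and -3.30 (SE 0.22, adjusted p = 3.32e-06) on the other. Oat was 1.49-fold lower, with -0.57 (SE 0.11, adjusted p = 0.00678). The median log2 difference was -3.30 over the 9 probe sets and 0.04 over all probe sets. The groups did not overlap on any of the 9, and an exact two-sided permutation test of a single probe set gave its smallest possible p of 0.1 for each. The share of all probe sets without overlap was not counted in this comparison. Slc1a2 probe set 1459014_at, with -0.82 (adjusted p = 0.0236), no longer passed without KO 6 months replicate 1 or 3 (adjusted p = 0.0806 and 0.0765). Oat did not pass once the arrays were centered on housekeeping genes, although its difference was then -0.67 (limma, adjusted p = 0.0725).

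The comparison of ages in WT-labelled livers used the same WT 6 months arrays, so its result is not independent of the previous one. Under exchanged labels it would set WT livers at 24 months against KO tumors. All 9 probe sets were lower in WT 24 months than in WT 6 months, 6 of them by 3-fold or more, where 8.76% of all probe sets passed and 1.65% did so with a fold of 3 or more. Slc1a2 was 18.0-fold lower on 1438194_at and 18.4-fold lower on 1451627_a_at (-4.20, SE 0.13, adjusted p = 1.23e-08). Rhbg was 12.9-fold lower (-3.69, SE 0.23, adjusted p = 2.47e-06). The brighter Glul probe set was 2.16-fold lower (-1.11, SE 0.18, adjusted p = 0.00241) and the other 5.38-fold lower (-2.43, SE 0.22, adjusted p = 3.67e-05). Oat was 2.27-fold lower (-1.18, SE 0.11, adjusted p = 6.19e-05). The median over the 9 was -2.43, against 0.003 over all probe sets.

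**Figure D2:**
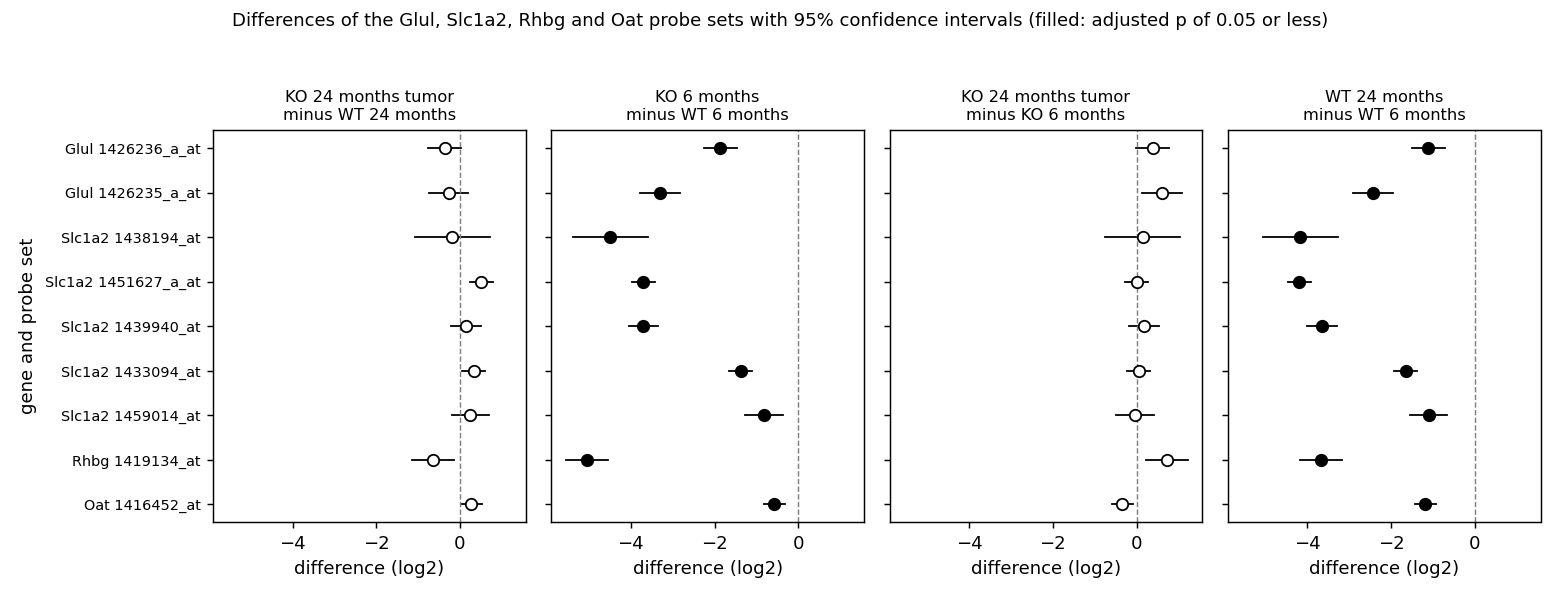
Log2 difference (horizontal axis) of each probe set (vertical axis) in the 4 comparisons by deposited label, with 95% confidence intervals from limma and filled points for an adjusted p of 0.05 or less. All 9 points are filled and below 0 in both comparisons with WT 6 months, and none is filled in the 2 others.

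The KO tumors were then compared with WT livers of the same age, by label. None of the 9 probe sets passed limma's test, where 0.238% of all probe sets did. SAM, the test of the study's methods, also called none of the 9, and 242 probe sets in all. An unadjusted p under 0.05 was found for 4 of the 9 and for 15.3% of all probe sets. Rhbg was 0.64 log2 lower in KO 24 months tumor than in WT 24 months (95% confidence interval -1.15 to -0.14, adjusted p = 0.23). Its groups did not overlap, and how many of all probe sets were separated like this was not counted. Slc1a2 on 1451627_a_at was higher by 0.51 (0.24 to 0.79, adjusted p = 0.119), and Oat by 0.27 (0.02 to 0.52, adjusted p = 0.287). Glul differed by -0.36 (-0.76 to 0.03, adjusted p = 0.359) on the brighter probe set. The intervals of all 9 lay between -1.15 and 0.79 log2, and none contained the difference of the same probe set between KO 6 months, or WT 24 months, and WT 6 months. If the labels KO 24 months tumor and WT 6 months were exchanged, the tumors of this comparison would be the arrays labelled WT 6 months, and its values those given above for ages in WT, with the sign turned.

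Between the KO tumors and the 6-month-old KO livers, by label, none of the 9 passed either by limma or by SAM. Of all probe sets 0.02% passed limma's test, and SAM called 119. At an unadjusted p under 0.05 there were 3, and 6.11% of all probe sets. Rhbg was higher in KO 24 months tumor by 0.73 (0.22 to 1.23, adjusted p = 0.652) and Glul probe set 1426235_a_at by 0.60 (0.13 to 1.08, adjusted p = 0.702), while Oat was lower, with -0.34 (-0.58 to -0.09, adjusted p = 0.664). The groups did not overlap in these 3, a separation whose share over all probe sets was not counted. The 5 Slc1a2 probe sets differed by -0.04 to 0.18.

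Whether the difference with age was unlike between the genotypes was tested by the interaction, as the age difference in KO minus that in WT. It passed for 8 of the 9 probe sets, all positive, with 3.15% of all probe sets passing. A fold of 3 or more was reached as well by 6, and by 1.33% of all probe sets. Rhbg gave 4.41 (SE 0.32, adjusted p = 2.88e-05) and Oat 0.84 (SE 0.16, adjusted p = 0.0144). The exception was Slc1a2 probe set 1459014_at (1.07, adjusted p = 0.0786). The same sum of group means results if the labels KO 24 months tumor and WT 6 months are exchanged. Oat did not pass with housekeeping centering, where it gave 0.98 (limma, adjusted p = 0.115).

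The wider pathway was read from lists chosen with earlier results of these data known. Each gene was taken by its brightest probe set among those annotated with its symbol alone. Of 11 carriers of glutamine and glutamate, 4 were higher and 2 lower in KO 6 months than in WT 6 months, and 3 were higher and 2 lower in WT 24 months than in WT 6 months. The 2 that were lower were the same in both: Slc1a4, a carrier of small neutral amino acids, with -3.26 (adjusted p = 3.68e-06) and -3.58 (adjusted p = 2.05e-06), and Slc1a5, a glutamine importer, with -2.86 (adjusted p = 4.84e-07) and -2.48 (adjusted p = 1.87e-06). Like Slc1a2, of whose family they are members, they had their highest group mean in WT 6 months. Slc38a3, a glutamine carrier of the hepatocyte membrane, ran the other way, with 0.80 (adjusted p = 0.00049) in KO 6 months and 0.49 (adjusted p = 0.0113) in WT 24 months, both against WT 6 months. The median of the list was 0.19 and 0.09 in these comparisons.

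Of 6 measured enzymes of glutamine and glutamate, 1 was higher and 1 lower in KO 6 months than in WT 6 months, and 2 were higher in WT 24 months than in WT 6 months. Got1, the cytosolic aspartate aminotransferase, averaged 12.33 in KO 24 months tumor, 13.21 in KO 6 months, 12.69 in WT 24 months and 8.45 in WT 6 months. It was thus higher by 4.76 (adjusted p = 0.000121) in KO 6 months and by 4.23 (adjusted p = 0.000321) in WT 24 months than in WT 6 months. Gpt2, the mitochondrial alanine aminotransferase, was lower in KO 6 months, with -0.54 (adjusted p = 0.0333), and Glud1, glutamate dehydrogenase, was higher in WT 24 months by 0.33 (adjusted p = 0.0351). Of 5 measured enzymes of ornithine and proline metabolism, 2 were higher and 1 lower in KO 6 months and 1 was higher in WT 24 months, each against WT 6 months. Aldh4a1, which oxidizes the semialdehyde formed by Oat to glutamate, was higher in KO 6 months by 0.63 (adjusted p = 0.00625). Prodh, proline dehydrogenase, was the lower one, with -1.07 (adjusted p = 0.0333), and Prodh2, hydroxyproline dehydrogenase, was higher by 1.01 (adjusted p = 0.0163) and 0.91 (adjusted p = 0.0327). None of the other ammonia channels, Rhag, Rhcg and Aqp8, passed in any of the 4 comparisons. Rhcg, a relative of Rhbg, averaged 5.33 in KO 24 months tumor, 5.21 in KO 6 months, 5.27 in WT 24 months and 5.22 in WT 6 months.

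The urea cycle is the periportal route for ammonium. Of its 8 genes, 6 were higher and none lower in KO 6 months than in WT 6 months (median 1.17), and 5 were higher and none lower in WT 24 months than in WT 6 months (median 1.16). Arg1, arginase, which releases the ornithine that Oat uses, was higher by 5.25 (adjusted p = 4.87e-06) and 5.30 (adjusted p = 5.29e-06). Otc, which uses ornithine, was higher by 2.11 (adjusted p = 4.59e-05) and 1.81 (adjusted p = 0.000176). None of the carriers, the enzymes and the urea cycle genes passed between KO 24 months tumor and WT 24 months by label.

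**Figure D3:**
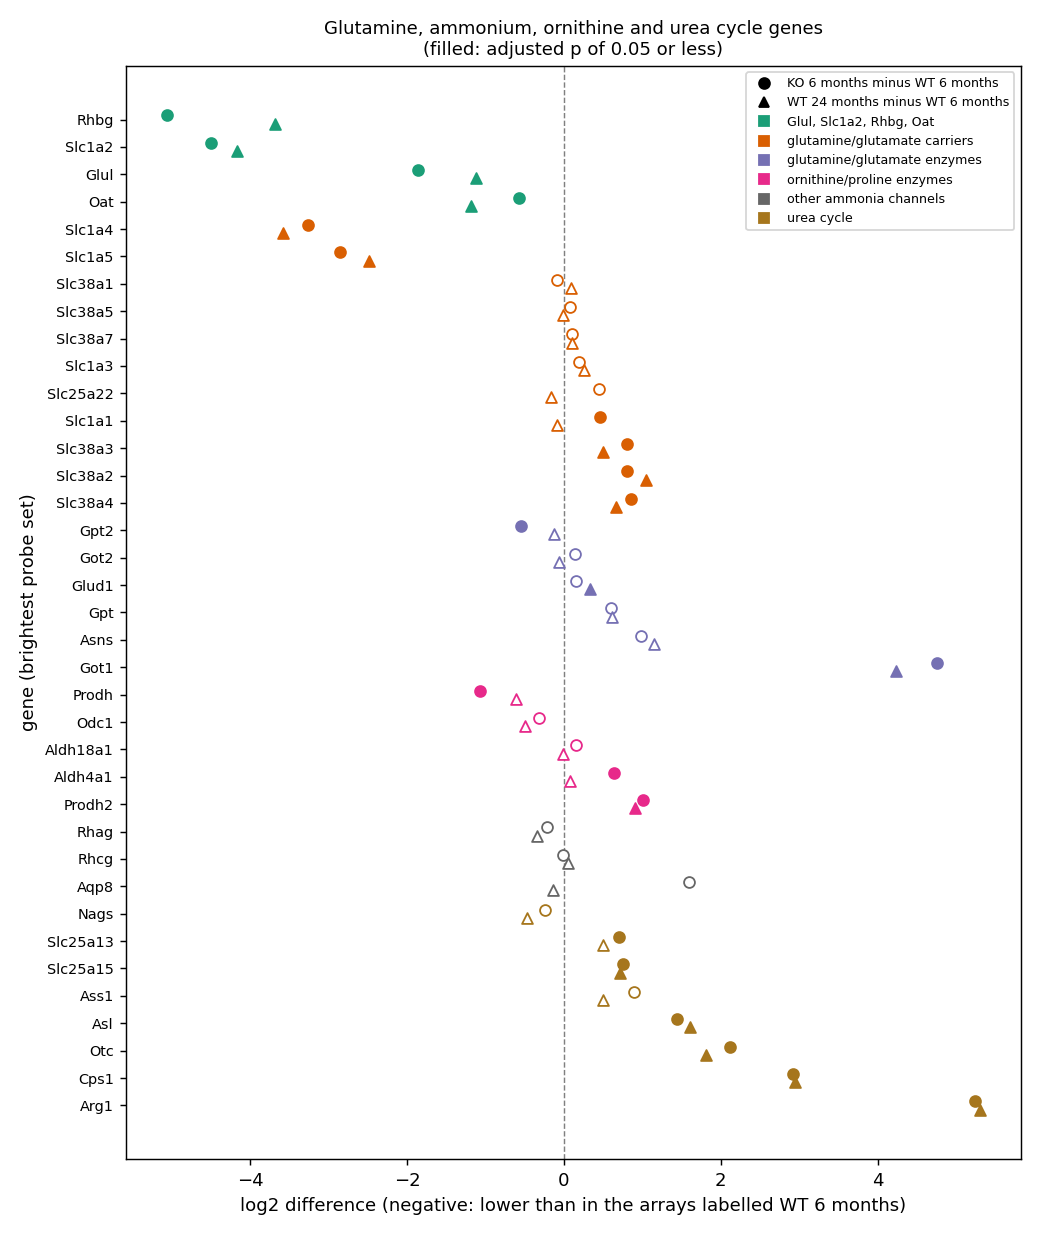
Log2 difference (horizontal axis) of each gene (vertical axis, brightest probe set) between the arrays labelled KO 6 months (circles) or WT 24 months (triangles) and those labelled WT 6 months, colored by list and filled for an adjusted p of 0.05 or less. Rhbg, Slc1a2, Slc1a4 and Slc1a5 lie farthest to the left, and Arg1 and Got1 farthest to the right.

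Other pericentral genes were mostly lower, and periportal genes higher, than in WT 6 months. Of 10 other pericentral genes, 7 were lower and none higher in KO 6 months than in WT 6 months (median -1.83), and 8 were lower and none higher in WT 24 months than in WT 6 months (median -1.89). Lgr5, a receptor that strengthens Wnt signals, was among them with -3.63 (adjusted p = 4.42e-06) and -3.72 (adjusted p = 4.14e-06). Cyp2e1, a cytochrome P450 of the pericentral zone, did not pass, with -0.06 (adjusted p = 0.706) and -0.10 (adjusted p = 0.593). Its group means, 14.54 to 14.64, lie near the top of the scale, and whether the scale is compressed there was not tested. All 7 measured periportal genes were higher in both comparisons, with medians of 5.27 and 4.82. Hal, histidine ammonia-lyase, which releases ammonium, was higher by 6.94 (adjusted p = 8.44e-08) and 6.58 (adjusted p = 1.25e-07).

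Markers of other liver cells also differed between the groups. Of 7 endothelial markers, 5 were higher and none lower in KO 6 months than in WT 6 months, and also in WT 24 months than in WT 6 months. Clec4g, a lectin of sinusoidal endothelium, was higher by 2.42 (adjusted p = 3.84e-05) and 2.16 (adjusted p = 0.000107). Rspo3, a Wnt-enhancing ligand made by central vein endothelium, was among them too, with 1.90 (adjusted p = 0.000254) and 1.84 (adjusted p = 0.000354). Their summed signal, as log2, was 10.90 to 11.06 in KO 24 months tumor, 10.94 to 11.07 in KO 6 months, 10.57 to 11.53 in WT 24 months and 9.24 to 9.93 in WT 6 months. Of 6 stellate cell markers, 4 were higher and none lower in each of the same comparisons, with a sum of 11.77 to 11.87 in KO 24 months tumor, 12.25 to 12.31 in KO 6 months, 11.87 to 12.34 in WT 24 months and 9.26 to 10.44 in WT 6 months. The 6 measured hepatocyte markers summed to 17.13 to 17.14 in KO 24 months tumor, 17.19 to 17.21 in KO 6 months, 17.15 to 17.29 in WT 24 months and 17.02 to 17.04 in WT 6 months. Bright genes weigh most in such a sum, here Alb among others, whose group means of 15.05 to 15.16 lie near the top of the scale. By limma's test 2 of these markers were higher and none lower in KO 6 months, and also in WT 24 months, than in WT 6 months. Tat, 1 of them, averaged 12.64 in WT 6 months and 13.20 to 14.01 in the other groups. The 6 Kupffer cell markers summed to 11.18 to 14.64 in WT 24 months, their widest range, and to between 10.25 and 11.51 in the 9 arrays of the other groups. Bile duct markers (4 measured) summed to between 7.41 and 8.55 and lymphocyte markers (5 measured) to between 7.77 and 8.28 over all arrays. The part of these cells in the differences of Glul, Slc1a2, Rhbg and Oat was not tested.

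Genes that followed each of the 4 most closely over the 12 arrays were sought among the genes whose group means spanned at least 1 log2. These correlations share the high WT 6 months arrays and are descriptions only. For Glul they were Rhbg (r = 0.97), Slc13a3, a pericentral dicarboxylate carrier (r = 0.97), and Unc13b, a vesicle-priming protein (r = 0.96). After group means were subtracted, the same 3 had r = 0.70, 0.80 and 0.72 with Glul. For Slc1a2 they were Anxa2, an annexin (r = 0.99), Cstb, a cathepsin inhibitor (r = 0.98), and Rhbdf1, an inactive rhomboid protease relative (r = 0.98). Without group means these had r = 0.93, 0.85 and 0.75 with Slc1a2. It was taken by 1438194_at, on which WT 24 months replicate 3 stood above its group. In the same way Slc1a2 had r = 0.59 with Glul and 0.38 with Rhbg, against 0.92 and 0.96 before. For Rhbg they were Gstm2, a glutathione transferase (r = 0.99), Ube2e2, a ubiquitin-conjugating enzyme (r = 0.98), and Slc7a5, a carrier of large neutral amino acids (r = 0.98). Without group means these had r = 0.63, 0.79 and 0.56 with Rhbg.

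The lowest correlations were those of Gstk1, a glutathione transferase, for Glul (r = -0.98), Gldc, of the glycine cleavage system, for Slc1a2 (r = -0.99), and Bdh2, a dehydrogenase, for Rhbg (r = -0.99). Oat followed other genes, D130043K22Rik, Mblac2 and Ncald (r = 0.94 each), with Gdf10 lowest (r = -0.95). Its r was 0.58 with Glul, 0.80 with Slc1a2 and 0.70 with Rhbg, and -0.07, 0.11 and 0.19 after group means were subtracted.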

How the data were processed

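The authors hybridized liver RNA of 12 mice to Affymetrix whole-genome mouse arrays and deposited log2 intensities made by RMA with the simpleaffy package (version not given in the sources used here). RMA corrects background, equalizes quantiles and summarizes each probe set. Medians of the arrays lay between 5.41 and 5.45. Sequencing depth does not apply, and the number of arrays limits the precision. No batch or scan information was used.

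Groups were taken from the deposited labels and genes from the platform annotation supplied with the series. The members and the gene lists were chosen with earlier results of these data known. Of 45101 probe sets, 64 controls were left out, and 45037 were fitted with limma 3.58.1 in R 4.3.3 as 4 group means. P-values were adjusted over all 45037 (Benjamini-Hochberg), and a probe set passed at 0.05 or less. SE and intervals are limma's, and each SD is over 3 arrays. The fit was tested on simulated data. Limma's p-values set each difference against the spread between mice within groups, as estimated from all 4 groups. Nothing in the labels describes litters or cages, so variation shared by them cannot be separated. Named genes were every probe set of the 4 genes, genes among the 3 with the smallest p-values of their list in a comparison described (not every such gene is named), and the genes most and least correlated with each. Cyp2e1 falls outside this rule and was chosen after its values were seen. Alternatives were SAM, written out from its definition over 20 splits of 3 arrays against 3, a fit of only the groups compared, a replicate block, gene-level tests, a filter on dim probe sets, a trended prior, array centering on the median or on housekeeping genes, a fold of 3 and the removal of each array. Promoter sequences are those of RefSeq (GRCm38.p6). Figures were drawn with matplotlib 3.10.9.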

Additional observations from a re-analysis of the deposited data

Results flagged for a closer look

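The age difference in KO minus that in WT, by label, passed limma's test in 8 probe sets. It was 1.499 and 3.03 for Glul (1426236_a_at and 1426235_a_at), 4.32, 4.21, 3.84 and 1.70 for Slc1a2 (1438194_at, 1451627_a_at, 1439940_at and 1433094_at), 4.41 for Rhbg and 0.84 for Oat, all in log2. Each of these rests on the arrays labelled WT 6 months, in which the 8 probe sets were highest and Iqgap2 did not match the label. Groups of 3 arrays are too small for a test of single outlying arrays.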

How the results depend on the processing

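All 4 genes, by brightest probe set, passed in both comparisons with WT 6 months, in the interaction and where WT 6 months was set against the 3 others. With a fold of 3 required, the counts were 3 in KO 6 months against WT 6 months, 2 in WT 24 months against WT 6 months, 2 in the interaction and 2 in the last, with 5 of 9 probe sets left there. With housekeeping centering they were 3 in KO 6 months against WT 6 months and 3 in the interaction, where Oat did not pass. No other alternative moved a count of passing genes or probe sets by more than 1.5 times, and no difference that passed changed its sign. The signs that did change belong to differences that did not pass. For KO 24 months tumor against WT 24 months, Slc1a2 1438194_at was 0.21 with the mean of the gene's probe sets and -0.62 to 0.42 when each array was left out, the highest without WT 24 months replicate 3. For KO 24 months tumor against KO 6 months, Slc1a2 1451627_a_at was -0.0067 after median centering and -0.069 to 0.13 when each array was left out, 1433094_at -0.084 to 0.17 and 1459014_at -0.096 to 0.038. The cause was not tested. With only the groups compared in the fit, 1459014_at did not pass against WT 6 months (adjusted p = 0.0704 for KO 6 months and 0.0783 for WT 24 months). Its interaction passed without WT 6 months replicate 1 or 2 (adjusted p = 0.0256 and 0.0375). Centering on 3 housekeeping genes moved the median of all probe sets to -0.12 in WT 24 months against WT 6 months and 0.15 in the interaction.

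With the replicate number as a block, 9 of 9 probe sets passed in both comparisons with WT 6 months, 0 in the 2 others and 8 in the interaction, as without it. Arrays of the same number in different groups did not deviate together (r of their deviations from group means -0.24 to 0.19, against -0.17 to 0.29 for different numbers), so the numbers were not taken as pairs.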

Other observations

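A probe set that names Slc1a2 together with the predicted gene Gm13872, 1433095_at, was left out because its signal cannot be given to 1 gene. It averaged 6.66 ± 0.05 in KO 24 months tumor, 6.56 ± 0.04 in KO 6 months, 6.45 ± 0.10 in WT 24 months and 6.61 ± 0.18 in WT 6 months (SD, n = 3 each). Unlike the 5 probe sets of Slc1a2 alone, it was not highest in every array labelled WT 6 months, where it read 6.41 to 6.77, against 6.61 to 6.70 in KO 24 months tumor.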
